A study of Mus musculus with 6 samples.

Results

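The genes of the PI3K, AKT, mTOR and FOXO pathway were examined in regulatory T cells (Treg) of the thymus. The set held 30 genes, taken by symbol from a list of pathway components, and all 30 were found among the 32801 genes of the deposited table. Mice of both strains were 3 weeks old, and their thymic Treg were sorted as Thy1.1+ CD4+CD8- cells without GFP. They came from NOD mice, which develop autoimmune diabetes spontaneously, or from C57BL/6 (B6) mice, with 3 RNA-seq libraries per strain. The labels name no treatment. The labels used here do not say what GFP or Thy1.1 report, whether a library pooled several animals, or whether libraries came from separate mice, so p-values measure the spread between these libraries, which may be technical.

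Class I PI3K is a lipid kinase that antigen receptor, costimulatory and cytokine receptors switch on at the plasma membrane, where its product PIP3 recruits the kinases PDK1 and AKT. AKT relieves the brake that the TSC complex puts on RHEB and mTOR complex 1, which drives protein synthesis, and it expels FOXO transcription factors from the nucleus. In Treg the pathway is held under tight restraint: strong AKT activity is known to impair their development in the thymus, and FOXO1 and FOXO3 are known to act on Foxp3 and on genes of Treg function.

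The promoters shown here include those of the pair of genes that passed the test between strains, Pik3cd and Inpp4b. A promoter of Akt1 was added, at an annotated start chosen because its window holds a FOXO core motif. Each line gives the 250 bases before an annotated start, 5′ to 3′ on the strand of the gene, from RefSeq on GRCm38.p6. The stretches are chr4:149676090-149676339 (minus strand) for Pik3cd, chr8:81342312-81342561 (plus strand) for Inpp4b and chr12:112674885-112675134 (minus strand) for Akt1. Capitals mark the motif GTAAACA, which reads TGTTTAC on the other strand.
Pik3cd: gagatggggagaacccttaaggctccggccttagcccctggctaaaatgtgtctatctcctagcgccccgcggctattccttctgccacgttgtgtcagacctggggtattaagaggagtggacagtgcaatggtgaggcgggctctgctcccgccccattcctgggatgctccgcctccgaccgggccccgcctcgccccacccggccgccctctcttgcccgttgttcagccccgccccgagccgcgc
Inpp4b: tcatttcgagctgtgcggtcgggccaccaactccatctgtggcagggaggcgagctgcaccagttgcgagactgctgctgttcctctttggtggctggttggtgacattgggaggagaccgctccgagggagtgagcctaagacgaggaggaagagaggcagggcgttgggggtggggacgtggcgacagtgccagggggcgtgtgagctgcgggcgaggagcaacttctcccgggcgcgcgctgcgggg
Akt1: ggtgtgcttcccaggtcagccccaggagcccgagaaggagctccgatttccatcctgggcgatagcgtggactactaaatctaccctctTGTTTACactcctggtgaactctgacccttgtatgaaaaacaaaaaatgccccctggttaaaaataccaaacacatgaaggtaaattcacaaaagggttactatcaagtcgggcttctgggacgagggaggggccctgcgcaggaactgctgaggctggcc
Pik3cd has 3 annotated starts in that table, and the one shown is the richest in G and C (66.0%). Both strands of windows of 300 bases (250 before and 50 after the start) were searched for GTAAACA. It was present in 2 of the 43 windows of the 29 members found in the table (4.65%), against 3.65% of all 32851 windows. The 2 windows belonged to Akt1, where the match began 161 bases before the start shown, and to Pik3cg, at 92 bases before one of its starts. The window of the other Akt1 start, chr12:112674227-112674526 (79.7% G and C), held no copy. The stretches of Pik3cd and Inpp4b hold no copy of these letters.

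Normalized counts, the unit used throughout, are reads per gene scaled by the size factor of their library and then rounded. Estimated depth ran from 15500000 reads (B6 library 20) to 21600000 (NOD library 18). Of 16442 genes tested with limma, 1626 (9.89%) differed between strains at an adjusted p below 0.05. The 7 Treg markers summed to 105248 to 116383 normalized counts in NOD and 99826 to 112263 in B6. Of them Cd3e alone was called, higher in NOD (14.3% called). Foxp3, which defines the Treg lineage, lay between 1701 and 2446 in the 6 libraries. Cd4 lay between 7248 and 7952 in NOD and between 5825 and 6407 in B6, without overlap (limma adjusted p = 0.0768). Ctla4, the largest term of the Treg sum in every library, also did not overlap. It lay between 66497 and 70232 in NOD and between 53515 and 60323 in B6 (limma adjusted p = 0.354). Ikzf2 leaned the other way, at 21183 to 29334 in NOD and 29076 to 34737 in B6 (limma adjusted p = 0.2). The 8 B cell markers summed to 192 to 258 normalized counts in NOD and 235 to 274 in B6, with Pax5 at 0 to 3 and Ms4a1 at 0 to 10, and 0 of the 4 tested were called by limma. The 12 markers of dendritic cells and macrophages summed to 1552 to 2046 in NOD and 2087 to 2193 in B6, with Itgax at 2 to 16 and Flt3 at 4 to 9. Of the 7 of them tested, Zbtb46 and H2-Aa were called lower in NOD. The highest of them, Zbtb46 and Cst3, went opposite ways. Zbtb46 stood at 713 to 962 in NOD and 1084 to 1272 in B6, and Cst3 at 606 to 982 and 522 to 585. H2-Aa stood at 31 to 66 in NOD and 72 to 176 in B6, and H2-Ab1 at 42 to 57 and 77 to 110. Lyz2 stood at 3 to 15 and 13 to 38, and Xcr1 and Csf1r overlapped. The 8 markers of immature thymocytes summed to 371 to 517 and 383 to 510, with Ptcra at 0 or 1, and Cd8a was called higher and Rag1 lower in NOD. The 6 markers of NK and gamma-delta cells summed to 397 to 581 and 480 to 633, and the 5 of thymic epithelium to 172 to 242 and 227 to 321, with no call among those tested. Each of the calls of Zbtb46, H2-Aa, Cd8a and Rag1 was lost when at least 1 of the libraries was left out (Cd8a without NOD library 18, Rag1 without NOD library 2 or B6 library 4). The part of these traces in the results below was not tested. In such bulk samples fewer cells of a type and less RNA per cell cannot be told apart.

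Transcripts of all 30 members were present in both strains, and 2 passed the test between them. All 30 members passed the filter on low values (10 or more normalized counts, reached in 3 or more libraries), and their lowest single value was 53. With limma, Pik3cd and Inpp4b rose in NOD and 0 of the 30 fell, against 4.59% of all tested genes called higher and 5.3% called lower. The called share of the members was 6.67%, near the background of 9.89%. At an unadjusted p below 0.05 there were 6 higher and 3 lower members, or 30%, where the share over all tested genes was 20.3%. The NOD and B6 libraries did not overlap for 9 members (5 higher and 4 lower), or 30%, against 24.1% of tested genes. The median log2 difference of the members was 0.05, and that of all tested genes 0.01. Their median absolute difference was 0.20, against 0.22 over all tested genes.

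**Figure D1:**
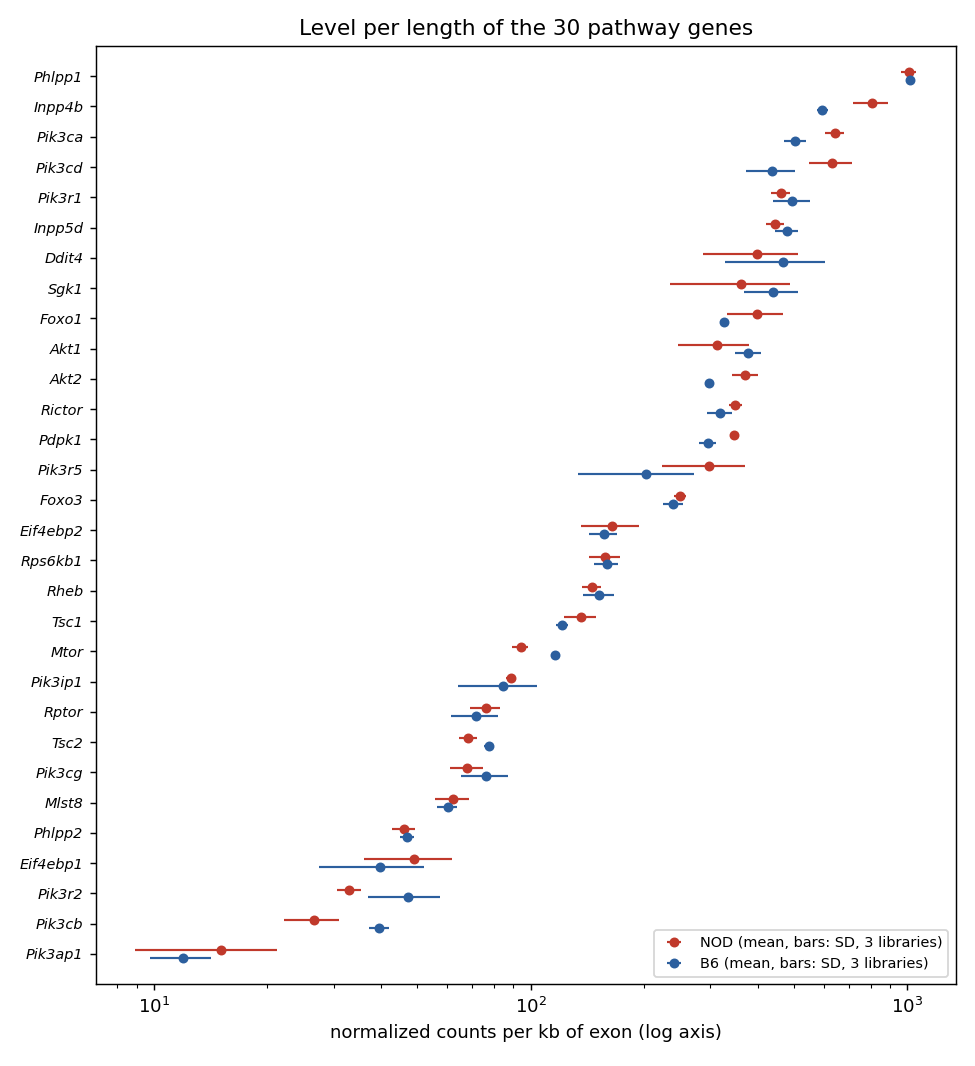
Mean normalized counts per kilobase of exon (log axis) of the 30 pathway genes in NOD and B6, with bars for the SD over 3 libraries, sorted by the mean of all 6 libraries. Phlpp1 is at the top and Pik3ap1 at the bottom, and for most genes the strains lie close beside each other.

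Levels per length spanned a wide range. Per kilobase of exon, Phlpp1, which encodes a phosphatase of AKT, was highest at 1014 normalized counts over the 6 libraries, followed by Inpp4b at 699.9, Pik3ca at 572.4 and Pik3cd at 533.8. The lowest were Pik3ap1 at 13.5 and Pik3cb at 33.0. Exon lengths were taken from GENCODE M21, and a shorter form in use in these cells would make a level per length too low.

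The class I catalytic subunits differed from each other in their strain differences. Pik3cd encodes p110delta, the catalytic subunit most tied to lymphocytes. NOD libraries 2, 10 and 18 held 4106, 4374 and 3358 normalized counts of it, and B6 libraries 4, 12 and 20 held 3082, 2836 and 2291. All 3 NOD libraries lay above all 3 B6 libraries. Pik3cd rose in NOD by a log2 difference of 0.53 ± 0.14 (SE, limma adjusted p = 0.032), a fold of 1.44. Pik3cd no longer passed when NOD library 2 (adjusted p = 0.112), NOD library 10 (0.0691), B6 library 12 (0.0807) or B6 library 20 (0.0957) was left out, or in a fit without a trend (0.163).

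Pik3ca, which encodes the broadly expressed p110alpha, stood at 5645, 6220 and 5611 in NOD and 4401, 4389 and 4944 in B6, again without overlap. Its log2 difference of 0.35 ± 0.10 just missed the threshold (limma adjusted p = 0.0538), and with single libraries left out its adjusted p ran from 0.0401 (B6 library 20) to 0.191 (B6 library 4). Pik3cb, which encodes p110beta, went the other way, at 195, 220 and 157 against 293, 296 and 265, so that every NOD library was below every B6 library. Its log2 difference was -0.59 ± 0.17 (limma adjusted p = 0.0528), and with single libraries left out its adjusted p ran from 0.0242 (NOD library 10) to 0.222 (NOD library 18). Pik3cg, the catalytic subunit driven by G protein-coupled receptors, averaged 572 ± 57.0 in NOD against 641 ± 91.5 in B6 (mean and SD of 3 libraries per strain here and below), and the libraries overlapped.

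Per length, p110alpha and p110delta transcripts made up most of the sum of the 4 catalytic genes in both strains. Pik3cd held 46.0% ± 2.4 of that sum in NOD and 41.3% ± 4.6 in B6, and Pik3ca 47.1% ± 2.5 and 47.8% ± 5.2. Pik3cb held 1.93% ± 0.16 in NOD against 3.74% ± 0.11 in B6. The share of Pik3cb lay between 1.76% and 2.07% in NOD and between 3.64% and 3.87% in B6.

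Of the regulatory subunits, none passed the test. Pik3r1, which encodes p85alpha and stabilizes the catalytic subunits, stood at 4966, 4534 and 4468 in NOD and 4774, 4553 and 5614 in B6, and its libraries overlapped (log2 difference -0.09 ± 0.11). Pik3r2, which encodes p85beta, stood at 137, 148 and 128 against 245, 165 and 181. Its NOD libraries were all below its B6 libraries, with a log2 difference of -0.50 ± 0.19 (limma adjusted p = 0.169). Pik3r5, a regulatory subunit of the p110gamma enzyme, had a large but uneven difference of 0.58 ± 0.24 (95% interval 0.06 to 1.10, limma adjusted p = 0.188), with 1235, 2057 and 1647 in NOD and 1079, 1521 and 763 in B6.

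The adaptor and inhibitor genes showed no strain call either. Pik3ap1, the adaptor BCAP known from B cells and myeloid cells, was the lowest member, with 58, 123 and 71 in NOD libraries 2, 10 and 18 against 70, 77 and 53 in B6, and with NOD library 10 apart from the rest. Pik3ip1, a membrane protein that restrains PI3K, stood at 378 ± 10.8 in NOD and 360 ± 85 in B6.

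Among the phosphatases that act on the lipid products, Inpp4b rose in NOD. It removes a phosphate from the lipid that SHIP1 makes out of PIP3, and its transcript was among the highest of the set. The NOD libraries held 10026, 9721 and 11797 normalized counts of it and the B6 libraries 8053, 7500 and 7769. The strains did not overlap. The log2 difference was 0.43 ± 0.11 (limma adjusted p = 0.026), a fold of 1.35. Inpp4b missed the threshold when any library but NOD library 10 was left out. The adjusted p was then 0.0609 (NOD library 2), 0.133 (NOD library 18), 0.067 (B6 library 4), 0.104 (B6 library 12) and 0.0553 (B6 library 20). It was 0.131 without a trend and 0.0521 with quantile normalization.

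Inpp5d, which encodes SHIP1, averaged 3391 ± 189 in NOD against 3644 ± 261 in B6 and overlapped (log2 difference -0.10, 95% interval -0.33 to 0.12). The AKT phosphatase genes overlapped too. Phlpp1 stood at 6820 ± 314 in NOD and 6872 ± 198 in B6, with a 95% interval of -0.22 to 0.20 on the log2 scale. Phlpp2 stood at 389 ± 27.3 and 396 ± 17.0 (interval -0.31 to 0.26).

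**Figure D2:**
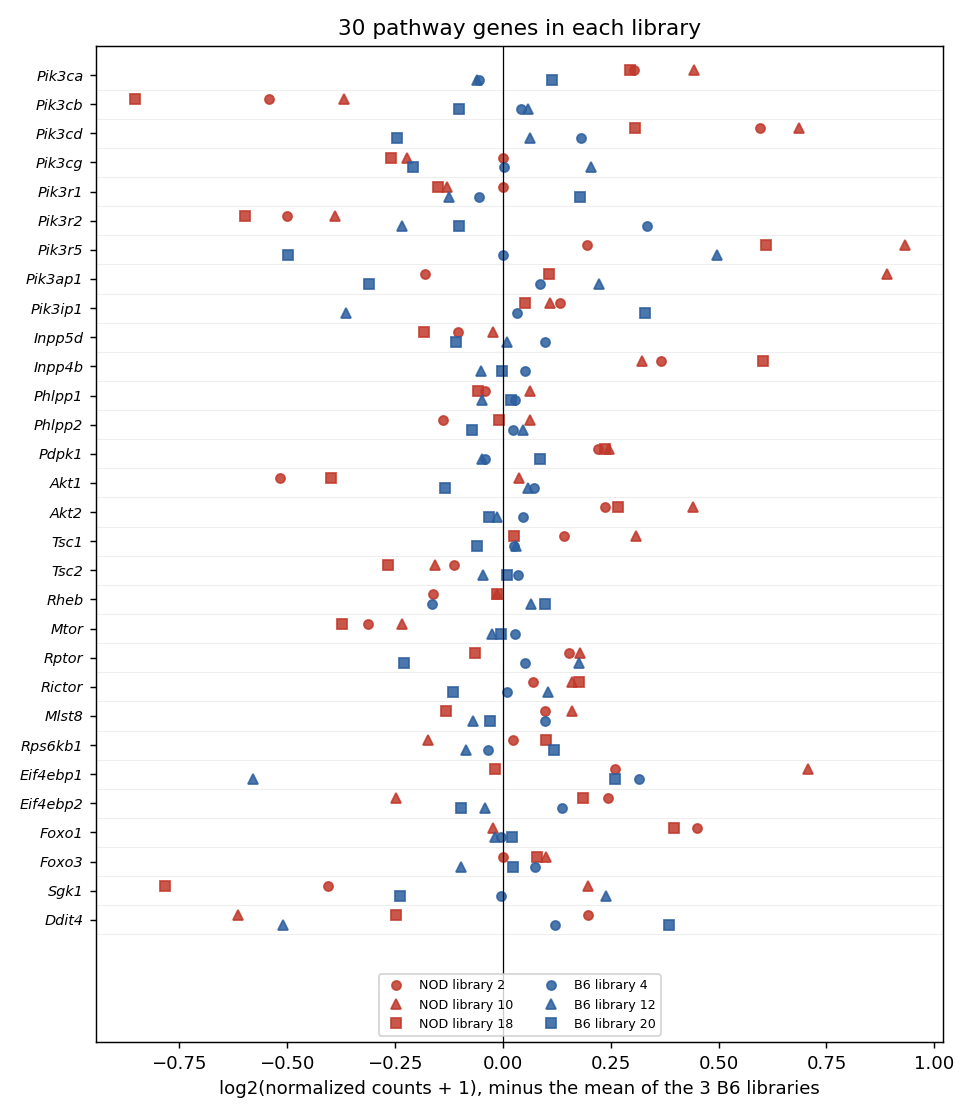
Each point is 1 library (NOD red, B6 blue, shape by library) on the scale log2(normalized counts + 1) minus the mean of the 3 B6 libraries of that gene. Inpp4b, Pik3cd, Pik3ca, Pdpk1 and Akt2 have all NOD points to the right of all B6 points, and Pik3cb, Pik3r2, Tsc2 and Mtor to the left.

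The kinases downstream of PIP3 pointed in both directions. Pdpk1, which encodes PDK1, the kinase that activates AKT, stood at 3759, 3826 and 3802 in NOD and 3137, 3122 and 3428 in B6, without overlap (log2 difference 0.23 ± 0.09, limma adjusted p = 0.185). Akt2, the isoform best known from insulin action, stood at 2505, 2882 and 2558 against 2194, 2104 and 2077, also without overlap (0.32 ± 0.10, limma adjusted p = 0.0823). Akt1, the broadly expressed isoform, stood at 1082, 1590 and 1174 in NOD and 1629, 1612 and 1412 in B6. NOD library 10 lay among the B6 libraries and the other NOD libraries below all of them, and the log2 difference was -0.29 ± 0.15 (limma adjusted p = 0.307). It was -0.46 without NOD library 10 (limma adjusted p = 0.0278) and -0.18 without NOD library 2 (0.694).

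Genes of the TSC complex and its target RHEB did not pass. Tsc1, which stabilizes the complex, averaged 1605 ± 158 in NOD against 1433 ± 49.7 in B6 and overlapped. Tsc2, the subunit that switches RHEB off, stood at 687, 667 and 618 in NOD and 762, 720 and 749 in B6, all NOD libraries below all B6 libraries (log2 difference -0.18 ± 0.11, limma adjusted p = 0.446). Rheb, the GTPase that activates mTOR complex 1, stood at 1123 ± 65.2 and 1175 ± 113.

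Mtor, the kinase shared by both mTOR complexes, stood at 945, 999 and 906 in NOD and at 1197, 1153 and 1171 in B6. The groups did not overlap, with a log2 difference of -0.31 ± 0.10 (95% interval -0.53 to -0.08), and the test was not passed (limma adjusted p = 0.103). Mtor lies on chromosome 4 at 148448611 to 148557683 (GRCm38). It is 1.09 megabases from Pik3cd at 149649168 to 149702571, whose difference had the opposite sign. Any link between the differences of Mtor and Pik3cd was not tested. The other subunits overlapped between strains. Rptor, which defines complex 1, stood at 1023 ± 92.6 in NOD and 965 ± 135 in B6, Rictor, which defines complex 2, at 5912 ± 231 and 5388 ± 408, and Mlst8, a subunit of both, at 275 ± 28.7 and 267 ± 16.3. Of the exon length of Mlst8, 22.5% overlaps exons of Bricd5 on the opposite strand, and 7.2% of that of Tsc2 overlaps Pkd1. Without a stated strand setting, reads of such pairs cannot be told apart.

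The translation targets of mTOR complex 1 overlapped in every case. Rps6kb1, which encodes the kinase S6K1, stood at 1363 ± 130 in NOD and 1376 ± 102 in B6 (log2 difference -0.02, 95% interval -0.27 to 0.24). Eif4ebp2, an inhibitor of cap-dependent translation, stood at 953 ± 167 and 905 ± 77.7. Eif4ebp1, its partner gene, was low, at 101, 138 and 83 against 105, 56 and 101, and its interval was wide (-0.32 to 0.96).

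Foxo1, the FOXO factor with the largest known part in T cells, had 3871, 2788 and 3729 normalized counts in the NOD libraries and 2824, 2799 and 2873 in those of B6. NOD library 10 was below all B6 libraries, and the other NOD libraries stood above them. The log2 difference was 0.28 ± 0.13 (limma adjusted p = 0.262), and it ran from 0.19 without NOD library 2 (limma adjusted p = 0.634) to 0.42 without NOD library 10 (0.0174). Foxo3 stood at 1808, 1936 and 1908 in NOD and 1902, 1689 and 1836 in B6, an overlap with a 95% interval of -0.16 to 0.28. In GENCODE M21 an antisense gene, Gm20402, overlaps 7.8% of the exon length of Foxo1.

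Sgk1 and Ddit4, respectively a kinase activated through mTOR complex 2 and an inhibitor of mTOR complex 1 induced by stress, spread widely within each strain. Sgk1 stood at 1617, 2452 and 1243 in NOD and at 2135, 2527 and 1815 in B6 (log2 difference -0.33 ± 0.21, limma adjusted p = 0.457). The difference was -0.59 without NOD library 10 (limma adjusted p = 0.0327), -0.10 without NOD library 18 (0.888) and -0.21 without B6 library 12 (0.757). Ddit4 stood at 911, 519 and 669 in NOD and 864, 558 and 1037 in B6, and the strains overlapped.

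**Figure D3:**
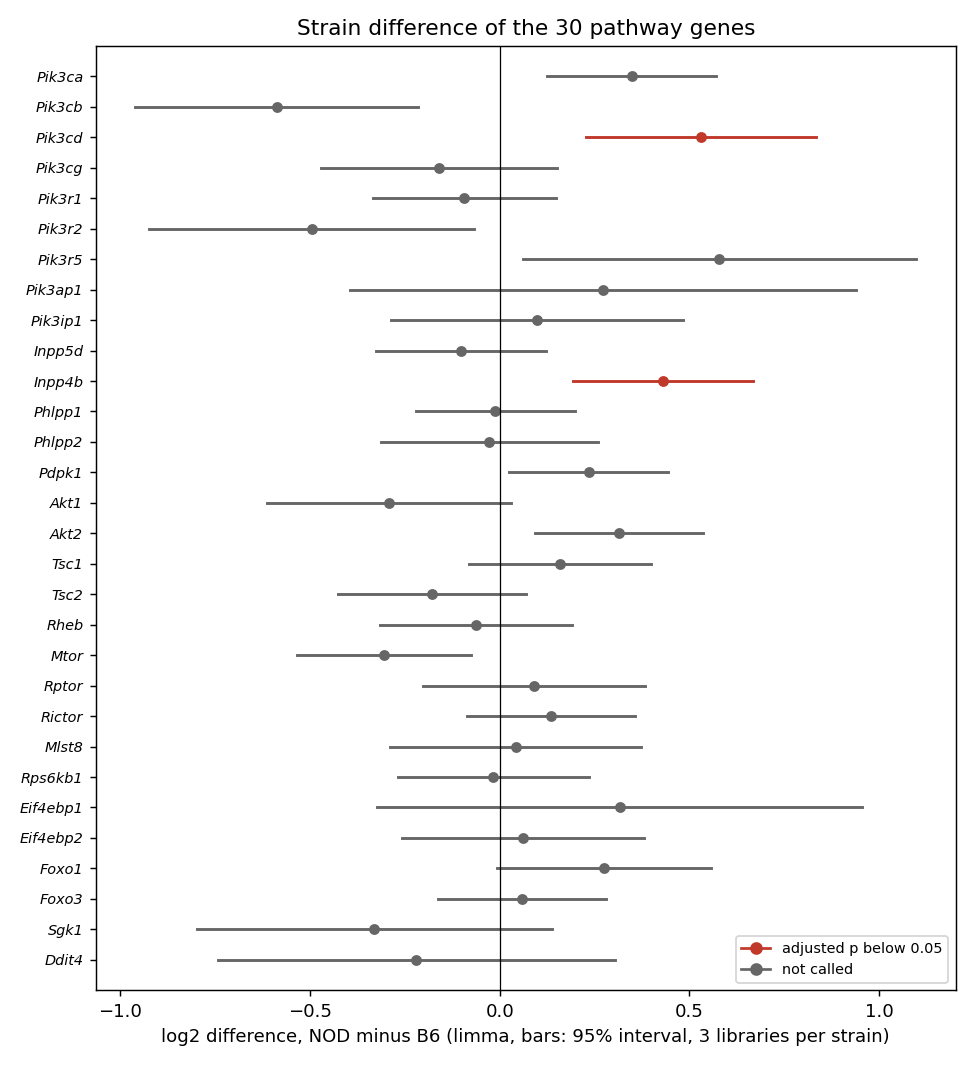
Log2 difference (NOD minus B6) of the 30 genes by limma, on values of log2(normalized counts + 1), with bars for the 95% interval from 3 libraries per strain. Red marks Pik3cd (0.53) and Inpp4b (0.43), the genes with an adjusted p below 0.05.

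The size of a strain difference that these data leave room for was limited for most members. The 95% intervals, which are not adjusted for the number of genes, lay within a fold of 1.5 in either direction for 20 of the 30 members and within 2 for 29, the exception being Pik3r5. In the authors' deposited table, which rests on a DESeq2 fit that was not made on these 6 libraries alone, 4 members had an adjusted p below 0.05, against 9.75% of the genes with one. In the authors' deposited table these were Pik3ca (log2 fold change 0.35, adjusted p = 0.00235), Pik3cb (-0.58, 0.00907), Pik3cd (0.53, 0.00767) and Pdpk1 (0.23, 0.0166). Inpp4b had an adjusted p of 0.0674 in the authors' deposited table, so Pik3cd alone was called in both. The fold changes of that table come in part from the same libraries, and all 30 had the same sign in both.

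Partner genes were also set against each other within each library, in 10 ratios that cancel any scaling of a library. The pairs were chosen by role after the values had been seen. The ratio of Akt2 to Akt1, per length, was 1.33, 1.04 and 1.25 in NOD and 0.774, 0.750 and 0.845 in B6. Thus Akt2 exceeded Akt1 per length in every NOD library and was below it in every B6 library. In counts not divided by length, Akt2 exceeded Akt1 in every library of both strains. Which gene leads therefore depends on the exon lengths used (7131 bases for Akt2 and 4098 for Akt1), and the forms in use were not tested. The ratio of Pik3ca to Pik3cb was 22.9, 22.4 and 28.3 in NOD against 11.9, 11.7 and 14.8 in B6, and that of Pik3cd to Pik3cg 8.68, 10.8 and 8.50 against 6.50, 5.20 and 5.60. Tsc1 to Tsc2 gave 1.87, 2.16 and 1.92 against 1.56, 1.65 and 1.49. These 4 ratios did not overlap between strains, and each had a two-sided exact permutation p of 0.1, the smallest that 3 against 3 libraries can give, with an adjusted p of 0.25 over the 10 ratios. The other 6, which included Pik3cd to Pik3ca, Phlpp1 to Phlpp2, Rictor to Rptor and Foxo1 to Foxo3, overlapped. No ratio could pass a threshold of 0.05 in this design. The ratio of Pik3ca to Pik3cb had to separate, because Pik3ca alone lay higher and Pik3cb alone lower in every NOD library. The share of other gene pairs that separate was not determined, so the count of separated ratios adds no support to the single-gene values.

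**Figure D4:**
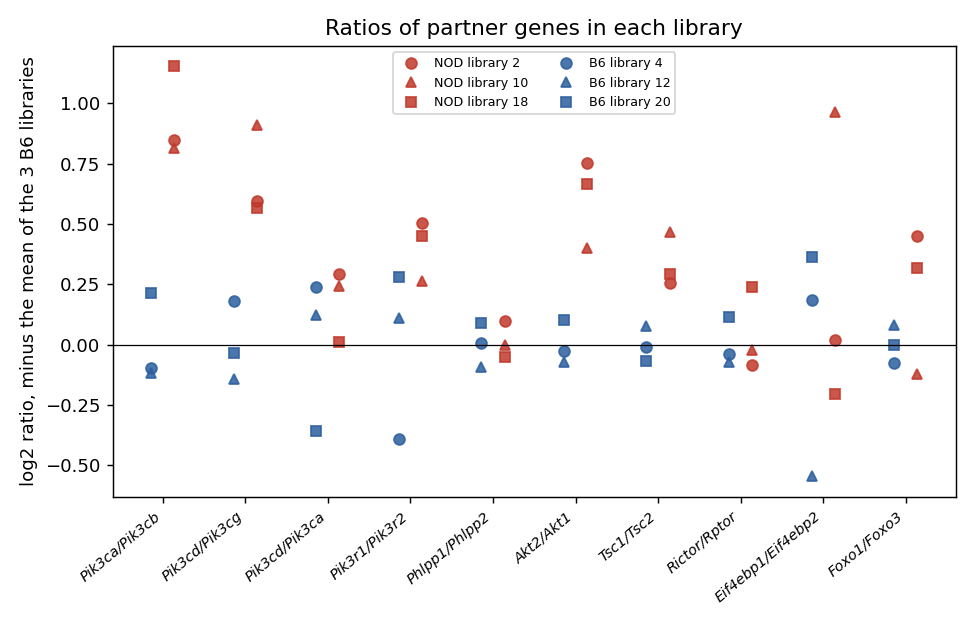
Log2 ratio of 2 partner genes in each library (NOD red, B6 blue, shape by library), minus the mean of the 3 B6 libraries. For Pik3ca/Pik3cb, Pik3cd/Pik3cg, Akt2/Akt1 and Tsc1/Tsc2 all NOD points lie above all B6 points, and for the other 6 ratios the strains overlap.

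Several members spread widely within a strain, and NOD library 10 was often the library apart. Relative to the mean of NOD libraries 2 and 18, that library held 1.91 times as much Pik3ap1, 1.72 times as much Sgk1, 1.43 times as much Pik3r5 and 1.41 times as much Akt1, and 0.734 times as much Foxo1 and 0.657 times as much Ddit4. B6 library 12 stood against the other B6 libraries at 1.25 for Pik3ap1, 1.28 for Sgk1, 1.65 for Pik3r5 and 1.06 for Akt1, and at 0.983 for Foxo1 and 0.587 for Ddit4. These 6 genes were chosen after their values were seen. Eif4ebp1 stood at 1.5 in NOD library 10 and 0.544 in B6 library 12, on opposite sides. Over all 30 members, both libraries were the highest of their strain for 7 and the lowest for 4, and their ratios lay on the same side of 1 for 18. The same counts over all tested genes were not made. Over tested genes at or above the median level, deviations of both libraries from their strain means correlated at 0.441. The shared pattern is therefore not particular to the members. Of 14 genes that respond to cell handling, 10 were highest and 3 lowest in library 10 among the NOD libraries, and 7 were highest and 1 lowest in library 12 among the B6 libraries. Junb stood at 1622, 7118 and 2014 in NOD and 7355, 7250 and 3445 in B6, and the heat shock gene Hspa1b at 62, 171 and 44 against 180, 298 and 97. Dusp1, Zfp36 and Btg2 were lowest in NOD library 10. Of these 14 genes, 0 were called higher by limma and 1 lower in NOD (7.14% called, against 9.89% of all genes) (Hspa8, at 20220, 23124 and 19759 against 37600, 42609 and 38726). There were 4 lower without NOD library 10, 2 without B6 library 20, 7 with array weights and 5 with neighbouring column numbers as blocks. Their summed level was 35524 to 47506 in NOD and 57531 to 67978 in B6. Hspa8 was the largest term of this sum in every library. The gap between the sums therefore mainly follows that gene and is not a trait of all 14. The part of the summed level in the values of Sgk1, Akt1, Foxo1 and Ddit4 was not tested. Of 9 tested genes known to be raised by glucocorticoids, Sgk1 and Ddit4 included, 1 was called lower (Il7r) and 0 higher with limma (11.1% called, near the 9.89% of all genes). There were 2 lower without NOD library 10, 0 lower without NOD library 18 or B6 library 4, and 1 higher without B6 library 20.

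**Figure D5:**
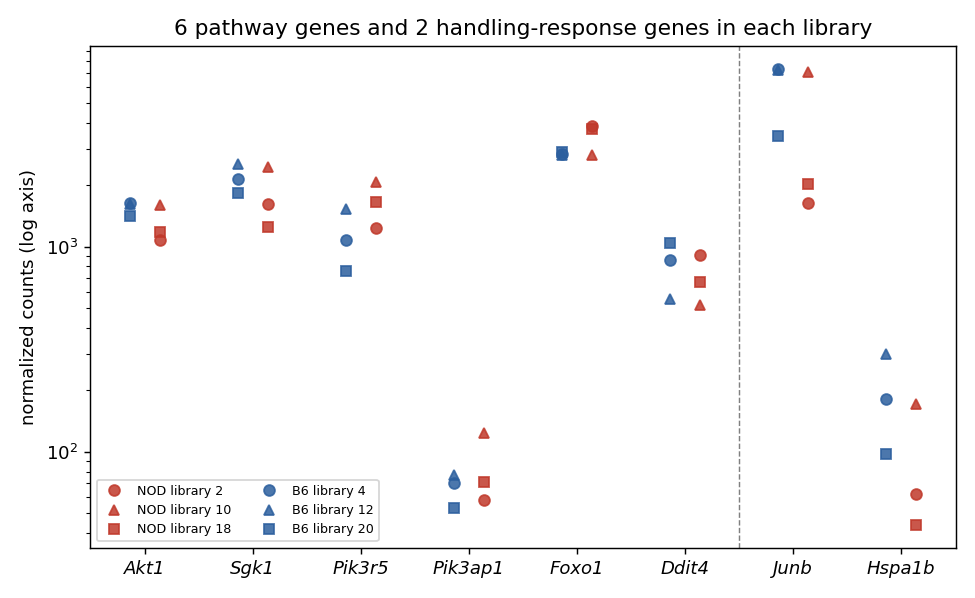
Normalized counts (log axis) of 6 pathway genes, left of the dashed line, and of the handling-response genes Junb and Hspa1b, right of it, in each library (NOD red, B6 blue, shape by library). The triangles, NOD library 10 and B6 library 12, are the highest of their strain for Sgk1, Pik3r5 and Pik3ap1 and the lowest for Foxo1 and Ddit4.

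Other components of the pathway, listed beside the 30, held larger strain differences than any member. Of 47 tested, 4 rose and 2 fell in NOD (12.8% called, against 9.89% of all genes), and their median log2 difference was 0.00. Inppl1, which encodes SHIP2, a relative of SHIP1 that acts on the same lipid, had 793, 943 and 731 normalized counts in the NOD libraries and 410, 388 and 251 in the B6 ones. It rose by 1.26 ± 0.19 on the log2 scale (limma adjusted p = 0.0011). Sgk3, a kinase related to SGK1 that binds endosomal lipids, stood at 223, 185 and 178 against 79, 83 and 88. It rose by 1.21 ± 0.19 (limma adjusted p = 0.00135). Every NOD library was above every B6 library for both, and both calls held with any single library left out. An antisense gene, Gm10602, overlaps 18.8% of the exon length of Inppl1.

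Flcn and Rragd fell. They belong to the machinery that signals amino acid supply to mTOR complex 1 on the lysosome, and none of the 10 listed FNIP, RAG and LAMTOR genes beside them (Fnip1, Fnip2, Rraga to Rragc and Lamtor1 to Lamtor5) was called. Flcn stood at 1148, 1394 and 1079 in NOD and 1699, 1832 and 1770 in B6 (log2 difference -0.56 ± 0.12, limma adjusted p = 0.0109). Rragd stood at 232, 298 and 227 against 457, 432 and 324 (-0.67 ± 0.18, limma adjusted p = 0.0335). Neither gene's libraries overlapped. Leaving out NOD library 2, NOD library 18 or B6 library 12 ended both calls, and leaving out B6 library 4 that of Rragd. Both calls were also lost in a fit without a trend. Rragb lay higher in NOD without overlap (log2 difference 0.38, limma adjusted p = 0.433), and the other 9 lay between -0.15 (Fnip2) and 0.23 (Lamtor2). Sesn3, a stress-induced inhibitor of mTOR complex 1, and Pik3c2a, a class II PI3K, rose by 0.34 on the log2 scale each. The limma adjusted p was 0.0463 for Sesn3 and 0.04999 for Pik3c2a, barely below the threshold. Pik3c2a missed the threshold with any 1 library left out, and Sesn3 with any but NOD library 10. Both also missed it after rescaling by TMM, a rule for library size, or after quantile normalization.

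Genes known as FOXO targets included several that rose. Of 24 tested, 5 rose and 1 fell (25.0% called, against 9.89%), with a median log2 difference of 0.19. This list, like the others here, was chosen with earlier results of these data known. Its share called can reflect that choice and is not a result about FOXO targets. In a fit without a trend 0 of them were called higher and 0 lower. Trib2, a pseudokinase, had 4731, 6735 and 7387 normalized counts in the NOD libraries and 3929, 3642 and 4521 in the B6 ones (0.62 ± 0.16, limma adjusted p = 0.029). Fbxo32, a ubiquitin ligase subunit, stood at 782, 703 and 804 against 539, 459 and 519 (0.59 ± 0.12, limma adjusted p = 0.00944). In these genes the NOD libraries were all higher. Bcl2l11, which encodes the pro-apoptotic protein BIM, stood at 2885, 3525 and 2805 against 2242, 2126 and 1991 (0.53 ± 0.12, limma adjusted p = 0.0123). The other genes that rose were Sesn3 and S1pr1, and Il7r fell. The number that rose was 2 without NOD library 18 and 3 without B6 library 4 or B6 library 12, and the call of Trib2 was also lost without NOD library 10. With limma 0 genes fell when NOD library 18, B6 library 4 or B6 library 20 was left out, and 2 fell when B6 library 12 was.

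Genes known to follow mTOR complex 1 activity were called in both directions. Of 29 tested, 1 rose and 3 fell (13.8% called, near the 9.89% of all genes), and the median log2 difference was -0.03. Odc1, the first enzyme of polyamine synthesis, stood at 21509, 25032 and 17965 in NOD and 37043, 42743 and 37235 in B6. It fell by 0.87 on the log2 scale (SE 0.14, limma adjusted p = 0.00165). Slc7a5, a transporter of large neutral amino acids, stood at 397, 611 and 385 against 795, 946 and 647 (-0.79 ± 0.20, limma adjusted p = 0.0243). Hif1a, the hypoxia-inducible factor, rose by 0.49 (limma adjusted p = 0.0226). Odc1 kept its call with every single library left out, and it was the 1 gene that fell when NOD library 2 or 18 or B6 library 4 or 12 was left out. Slc7a5 lost its call in those 4 cases. Hif1a lost it for NOD library 18, B6 library 4 and B6 library 12, and with quantile normalization. Without a trend Odc1 was the 1 gene called.

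Of 19 tested receptors and adaptors that feed the pathway, 3 rose and 2 fell (26.3% called, against 9.89%), with a median log2 difference of 0.05. This share, too, comes from a list chosen with earlier results known and is not a result about such genes. Gab2, a scaffold that binds p85, was low, with 8, 14 and 9 in the NOD libraries against 59, 74 and 56 in the B6 ones (-2.52 ± 0.35, limma adjusted p = 0.000585). Lck, the kinase that starts antigen receptor signalling, stood at 7210, 7138 and 7257 against 5583, 4931 and 4901 (0.49 ± 0.10, limma adjusted p = 0.00756). Icos, a costimulatory receptor that recruits PI3K, and Cd3e, a chain of the antigen receptor complex, also rose, and Il2rb, a chain of the IL-2 receptor, fell. Il2rb lost its call when NOD library 2 or 18 or B6 library 4 or 12 was left out, and Gab2 was then the 1 gene that fell. Il2rb and Lck also lost theirs without a trend.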

How the data were processed

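Total RNA of sorted thymic Treg was made into libraries with a TruSeq total RNA protocol, per the labels' protocols. The submitters' processing notes name Trimmomatic, STAR, DESeq2 and mm10. Which counter, gene models or strandedness they used is not given in the sources used here. The deposited value columns are scores: reads per gene after division by the library's size factor and rounding, as read from the file headers and the pattern of the values. The deposited table also gives the authors' log2 fold change with its standard error, and their p-value and adjusted p-value. The columns carry other numbers than the labels' replicates, and libraries are named by strain and column number.

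The fit was limma 3.58.1 (R 4.3.3) with a trend on log2(value + 1), strain being its sole term, over the 16442 genes that reached 10 normalized counts in 3 or more libraries (2 with a library left out). Calls needed a Benjamini-Hochberg adjusted p below 0.05. Fold changes are on that log2 scale, which understates low genes. Depth was estimated from the gaps left by rounding. For NOD library 18, 60.0% of low values came from a single possible read count, so no count test was run. The members and lists were chosen with earlier results of these data known. By a rule written with the design, all 6 values are printed for called members, members without overlap and 6 core members, and called list genes are named (up to 4 in each direction by adjusted p). Pik3r5, Pik3ap1, Eif4ebp1, Sgk1, Ddit4, Junb and Hspa1b were added after their values were seen, as were the 10 ratios. Some listed genes enter the counts and are not reported here by name. Alignment was to a B6 genome, and the effect of NOD sequence differences was not tested. Lengths come from GENCODE M21 (16321 of 16442 symbols matched). On simulated libraries of 16379 genes (dispersion 0.02 for every gene), 24.0% of genes changed 1.5-fold and 75.5% of genes changed 2-fold were recovered. For genes changed 1.25-fold it was 0%, and there were 6 false calls. Only 49 or 50 tested genes were changed per fold there, whereas 1626 genes were called in the real libraries. The recovered shares therefore hold for that setting and do not give the rate for the members.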

Additional observations from a re-analysis of the deposited data

How the results depend on the processing

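No paired analysis was possible because the columns of the table do not carry the replicate numbers of the labels, and the planned block by those numbers was not run. As an alternative chosen after seeing the data, neighbouring column numbers (2 with 4, 10 with 12, 18 with 20) were taken as blocks. No label states that they share a batch. Deviations from the strain mean were correlated over tested genes at or above the median level. The value was 0.441 for libraries 10 and 12, 0.337 for 18 and 20 and -0.0561 for 2 and 4. For pairs that are not neighbours it ran from -0.414 (libraries 10 and 20) to 0.296 (libraries 2 and 20). Deviations within a strain cancel out, so these correlations are not independent of each other. With these blocks 4 members were called higher (Inpp4b, Pik3ca, Pik3cd and Pik3r5) and 1 lower (Pik3cb). The main counts were 2 higher and 0 lower.

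Without a trend 0 members were called higher. With array weights 4 were called higher and 5 lower (Akt1, Mtor, Pik3cb, Pik3r2 and Sgk1), where 1247 genes in all were called higher and 1434 lower, against 755 and 871. Over all genes 490 were higher without NOD library 18 and 569 lower without B6 library 4. Rescaling by TMM called 1 lower (Pik3cb). With a library left out, the number higher ran from 0 to 2 and the number lower from 0 to 3. The count of higher members was 0 with NOD library 2 or B6 library 12 left out, and that of lower members was 3 with NOD library 10 left out (Akt1, Pik3cb and Sgk1). With pseudocounts of 0.5 or 10, with no filter, with a minimum of 50 normalized counts and with quantile normalization both counts stayed within 1.5 times the main ones, although quantile normalization called Pik3ca in place of Inpp4b. Neither Pik3cd nor Inpp4b changed sign in any of the 15 alternatives. The cause of these changes was not tested. Depth limits the low members most, Pik3ap1 and Eif4ebp1.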
